A study of Mus musculus with 8 samples.

Results

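A set of 10 genes that mark microglia, the resident macrophages of the brain, were followed in the cortex of newborn mice after a brief loss of uterine blood flow before birth. They are C1qa, C1qb, C1qc, Aif1, Cx3cr1, P2ry12, Csf1r, Tmem119, Trem2 and Tyrobp, and were taken as every non-control probe whose gene name in the array files is one of these 10 symbols. The rule found 10 genes of the 34741 names on the array, with 13 of the 55681 probes of the array and 22 spots per array. The ischemia group held 4 male C57BL/6NCr pups at postnatal day 1.5, whose mothers had had clips on the uterine arteries for 14 min at E16.5, counted in embryonic days. The control group held 4 male C57BL/6NCr pups of the same age, with no occlusion named for them. Whether control mothers had anesthesia or surgery, and which pups were littermates, is not in the labels, so p-values measure the spread between these pups. RNA of the whole cortex of each pup, 50 ng of it, was hybridised to its own one-colour Agilent array. In such a bulk sample, fewer cells of a type and less RNA per cell cannot be told apart.

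Microglia enter the brain from the yolk sac before birth and depend on the receptor kinase encoded by Csf1r for survival. Their C1q genes encode the 3 chains of C1q, the recognition protein of the classical complement pathway, which in the developing brain tags synapses and dying cells for engulfment. P2ry12 and Cx3cr1 encode receptors through which microglia sense nucleotides and neuronal fractalkine, and Trem2 signals through the adaptor encoded by Tyrobp. Macrophages at the brain's borders also make C1q, while Tmem119 and P2ry12 are used to tell mature microglia from them.

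Between 47.6% and 51.7% of non-control spots were well above background on each array, and 0 were saturated. All 10 genes were well above background on 8 of 8 arrays, so each passed the filter in both groups. The 8 neuronal markers checked were also all measured. Meningeal and choroid plexus transcripts differed between arrays. Summed over 8 measured meningeal markers, the signal was 3.14 to 15.5 times the array's 75th percentile in ischemia arrays and 2.96 to 4.14 times in control arrays. The mean log2 level of these markers was highest in ischemia replicate 1, at 1.85 above the control mean. Summed over 5 measured choroid plexus markers it was 3.03 to 117 times in ischemia arrays and 2.93 to 3.15 times in control arrays, and its mean log2 level was highest in ischemia replicate 4. Results are therefore also given without ischemia replicates 1 and 4. The arrays of the ischemia group lay in a different row of the slide from those of the control group, so slide row and group cannot be told apart.

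The probes of the C1q genes lie close together on chromosome 4. In mm9, the build of the array files, the 3 probes fall within 15891 bases, from 136436578 to 136452468, all on the minus strand. The probes of C1qa, C1qb and Tyrobp are shown for 2 chains of C1q and for the gene that the within-array differences refer to. The C1qa probe lies at chr4:136452409-136452468, the C1qb probe at chr4:136436578-136436637, and the Tyrobp probe on the plus strand at chr7:31200651-31202378. Its 60 bases span 1728 bases of genome, so they cross at least 1 intron. All are written 5′ to 3′ from the array files, in lower case throughout.
C1qa probe: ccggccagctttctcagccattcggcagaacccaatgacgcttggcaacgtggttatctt
C1qb probe: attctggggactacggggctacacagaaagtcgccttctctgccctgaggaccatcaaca
Tyrobp probe: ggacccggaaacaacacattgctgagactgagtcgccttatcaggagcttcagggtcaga

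RefSeq promoter sequences in build GRCm38.p6 were matched by symbol for 6 of the 10 genes, C1qb, C1qc, Aif1, Cx3cr1, P2ry12 and Trem2. The 250 bases before the transcript start were searched on both strands for GAGGAA, the core of the site of PU.1, a transcription factor that myeloid cells require. The motif was in 4 of the 6, namely C1qb, C1qc, Aif1 and Trem2, and in 23.3% of 32851 promoters. The longer form GAGGAAGT, which contains the core, was in 1 of the 6, C1qc, and in 2.44% of promoters. The C1qb and C1qc promoters are shown because these neighbouring genes differed in the same direction. The first covers chr4:136886201-136886450 and the second chr4:136892915-136893164, both on the minus strand, and capitals mark the motif or its reverse complement.
C1qb promoter: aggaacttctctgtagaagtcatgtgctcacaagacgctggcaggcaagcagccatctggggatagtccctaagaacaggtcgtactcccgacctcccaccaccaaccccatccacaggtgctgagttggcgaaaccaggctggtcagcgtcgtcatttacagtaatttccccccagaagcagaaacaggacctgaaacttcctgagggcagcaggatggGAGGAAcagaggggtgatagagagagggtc
C1qc promoter: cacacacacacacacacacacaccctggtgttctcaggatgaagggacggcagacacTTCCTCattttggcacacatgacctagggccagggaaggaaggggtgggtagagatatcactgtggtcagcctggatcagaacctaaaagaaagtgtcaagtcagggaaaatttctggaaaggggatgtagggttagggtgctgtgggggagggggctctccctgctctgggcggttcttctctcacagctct
A match of letters is a description and not a bound site.

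None of the 10 genes passed the test between ischemia and control cortex. The test was limma on log2 signal over each array's 75th percentile, with Benjamini-Hochberg adjustment over 19748 genes and a threshold of 0.05. It called 1 gene, or 0.00506% of all genes, and 0 of the 10 microglial genes, whose smallest adjusted p was 0.248. At an unadjusted limma p under 0.05, 3 of the 10 were higher and 1 lower, against 3.25% of all genes higher and 7.65% lower, or 10.9% in both directions. In 7 of the 10 the ischemia mean was above the control mean, against 43% of all genes. The median difference was 0.15 on the log2 scale over the 10 genes and -0.02 over all genes. Every value below is log2 signal over the array's 75th percentile, so 0 is the level of that percentile and a difference of 1 a doubling. The probes differ in their own brightness, so levels are compared between arrays and not between genes.

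The 3 genes of C1q averaged 1.16-fold to 1.34-fold higher in ischemia cortex, and none passed the adjusted threshold. C1qa, the A chain, read 0.55, 0.60, 0.29 and 0.42 in ischemia replicates 1 to 4, against -0.08, 0.27, -0.06 and 0.02 in control replicates 1 to 4. All 4 ischemia arrays lay above the highest control, ischemia replicate 3 only just so. C1qa averaged 0.46 ± 0.14 in ischemia and 0.04 ± 0.16 in control (SD, n = 4 each), a difference of 0.42 (SE 0.10, limma adjusted p = 0.248). That corresponds to 1.34-fold, with a 95% interval from 1.14 to 1.58 that is not adjusted for the number of genes.

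C1qc, the C chain, read 1.78, 1.72, 1.71 and 1.66 in ischemia replicates 1 to 4, against 1.07, 1.61, 1.33 and 1.47 in control replicates 1 to 4. The ischemia arrays again lay above every control, by the smallest margin over control replicate 2. C1qc differed by 0.35 (SE 0.11, limma adjusted p = 0.339), or 1.27-fold with a 95% interval from 1.07 to 1.51. Without the low control replicate 1 the difference was 0.25. C1qb, the B chain, read 0.37, 0.37, 0.20 and 0.42 in ischemia, against 0.16, 0.24, -0.02 and 0.11 in control. Here the groups overlapped, with ischemia replicate 3 below control replicate 2. C1qb differed by 0.22 (SE 0.08, limma adjusted p = 0.382), or 1.16-fold with a 95% interval from 1.03 to 1.32.

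**Figure D1:**
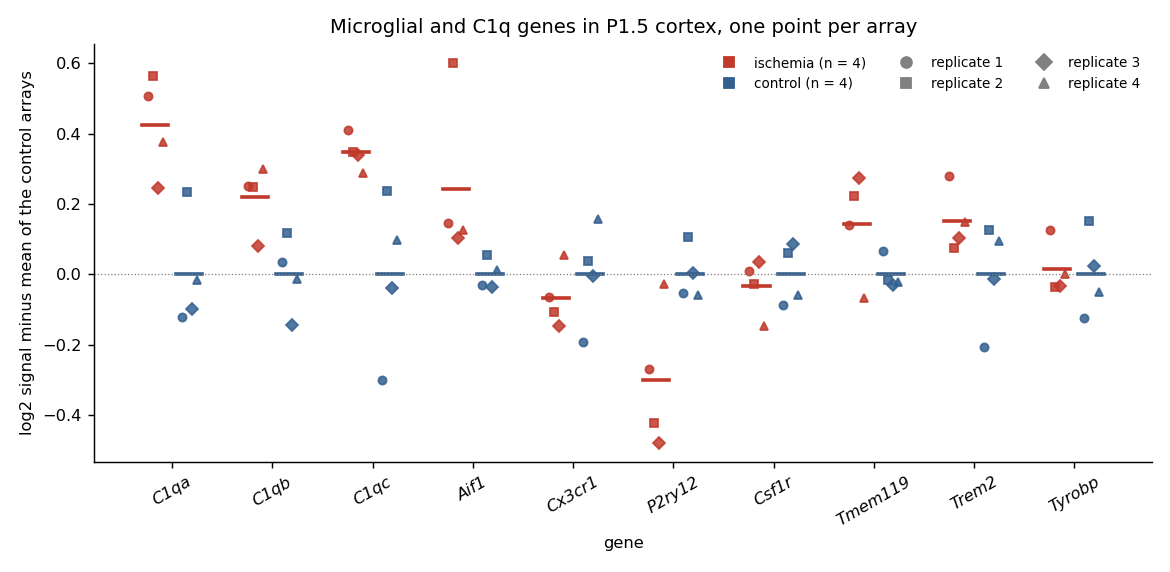
Log2 signal of each of the 10 genes, minus the mean of its 4 control arrays, by group, with a marker shape per replicate number and bars at the group means (n = 4 each). For C1qa, C1qc and Aif1 all 4 ischemia arrays lie above every control array, and for P2ry12 3 of 4 lie below every control array.

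The C1qc probe is printed 10 times on each array, which separates the error of a spot from the spread between arrays. With 1 array per pup, that spread holds differences between pups and those of labelling and hybridisation together. Within an array, the SD of the 10 spots was 0.04 to 0.07 on the log2 scale, and their coefficient of variation 2.97% to 4.91%. Between arrays, the SD of C1qc was 0.05 in ischemia and 0.23 in control. The mean of 10 spots had a standard error of 0.01 to 0.02 from the spots alone, which is smaller than the SD between arrays in either group. On the intensity scale before scaling, the 10 spots averaged 1234, 1203, 1241 and 1244 in ischemia replicates 1 to 4, against 733, 932, 807 and 1085 in control replicates 1 to 4.

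**Figure D2:**
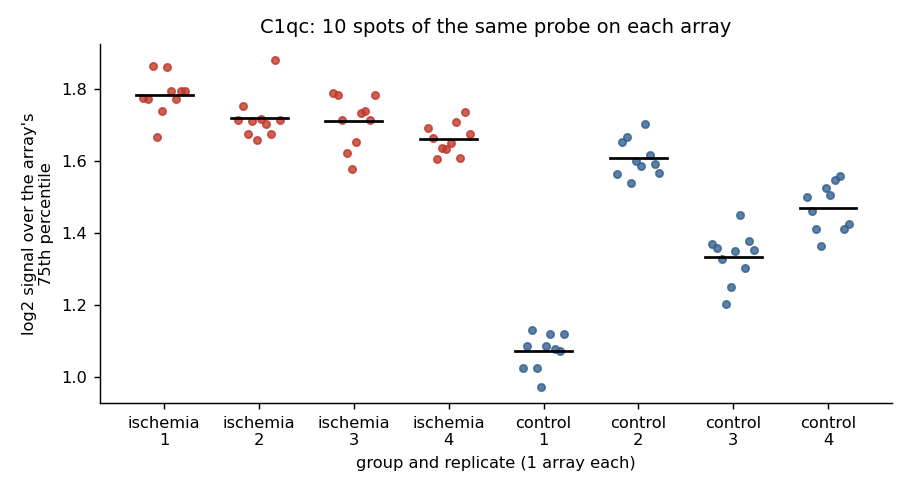
Log2 signal of the 10 C1qc spots on each of the 8 arrays, over the array's 75th percentile, with bars at the array means. The spots of ischemia arrays overlap one another, and those of control replicate 1 lie below all other arrays.

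Aif1, which encodes the calcium-binding protein IBA1 used to stain microglia, read 0.92, 1.38, 0.88 and 0.90 in ischemia replicates 1 to 4, against 0.75, 0.83, 0.74 and 0.79 in control replicates 1 to 4. All ischemia arrays were above all controls, and replicate 2 stood far above the other ischemia arrays. The difference was 0.24 (SE 0.11, limma adjusted p = 0.479). Without ischemia replicate 2 it was 0.13. Of the 10 genes, C1qa, C1qc and Aif1 were those whose groups did not overlap with ischemia higher, or 30% of them, against 2.27% of all genes. None was separated with ischemia lower, against 4.28% of all genes, and 6.55% of all genes were separated in either direction.

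P2ry12, the ADP receptor that steers microglial processes towards released nucleotides, was the only 1 of the 10 with a lower value at an unadjusted p under 0.05. It read -1.78, -1.93, -1.99 and -1.54 in ischemia replicates 1 to 4, against -1.56, -1.40, -1.51 and -1.57 in control replicates 1 to 4. Ischemia replicates 1 to 3 lay below every control, and replicate 4 lay among the controls. The difference was -0.30 (SE 0.10, limma unadjusted p = 0.0188, adjusted p = 0.370). Without ischemia replicate 4 it was -0.39. The probe at chr3:59020598-59020657 on the minus strand is dim, with intensities of 95.5 to 135 over the 8 arrays.

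For the further receptors and the adaptor the groups overlapped. Tyrobp, the adaptor also called DAP12, read 1.54, 1.38, 1.38 and 1.41 in ischemia, against 1.29, 1.56, 1.44 and 1.36 in control. The ischemia arrays lay within the range of the controls, and the difference was 0.02 with a 95% interval from -0.16 to 0.19. Csf1r, at its brightest probe, read 3.44, 3.40, 3.47 and 3.29 in ischemia, against 3.34, 3.49, 3.52 and 3.37 in control. All but replicate 4 of ischemia lay within the control range, and the difference was -0.03, with an interval from -0.19 to 0.12. Cx3cr1, at its brighter probe, read 2.10, 2.06, 2.02 and 2.22 in ischemia, against 1.97, 2.20, 2.16 and 2.32 in control, a difference of -0.07 with an interval from -0.26 to 0.13. These intervals, not adjusted for the number of genes, leave out 0.42, the estimate for C1qa, for each of the 3 genes. The interval of C1qa itself ran from 0.19 to 0.66, and the 3 genes were not tested against C1qa. Trem2, a lipid-sensing receptor, read 1.44, 1.24, 1.27 and 1.31 in ischemia, against 0.96, 1.29, 1.15 and 1.26 in control. It differed by 0.15 (SE 0.09, limma adjusted p = 0.577), and by 0.08 without the low control replicate 1.

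Tmem119, a membrane protein whose expression comes up as microglia mature, read -1.36, -1.28, -1.23 and -1.57 in ischemia, against -1.44, -1.52, -1.53 and -1.52 in control. Ischemia replicates 1 to 3 lay above every control and replicate 4 below every control. The difference was 0.14 (SE 0.08, limma adjusted p = 0.574) and 0.21 without ischemia replicate 4. The probe is dim, with intensities of at most 162, and its difference was only 0.056 when the background was corrected by normexp instead. Tmem119 thus had the opposite sign to P2ry12, the other gene used to mark mature microglia, and for both genes ischemia replicate 4 departed from the other 3 ischemia arrays.

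Genes with several probes showed how far a difference depends on the probe. The 3 Csf1r probes lie on the plus strand of chromosome 18, and gave 0.08 at chr18:61289398-61289758, -0.08 at chr18:61278661-61278720 and -0.03 at chr18:61290725-61290784. The SE of each was 0.07 to 0.08. The 2 Cx3cr1 probes, on the minus strand, gave 0.02 at chr9:119959018-119959077 and -0.07 at chr9:119957811-119957870. Over all 27127 probes kept, limma called 0, with 2742 at an unadjusted p under 0.05, or 10.1%. Of the 13 microglial probes it called 0, with 3 higher and 1 lower at an unadjusted p under 0.05. Of all probes, 3.05% were higher at that threshold and the rest of the 10.1% were lower. The remaining single probes lie at chr4:136445766-136445825 for C1qc, chr17:35307959-35308018 for Aif1, chr5:114243962-114244021 for Tmem119 and chr17:48491537-48491596 for Trem2.

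**Figure D3:**
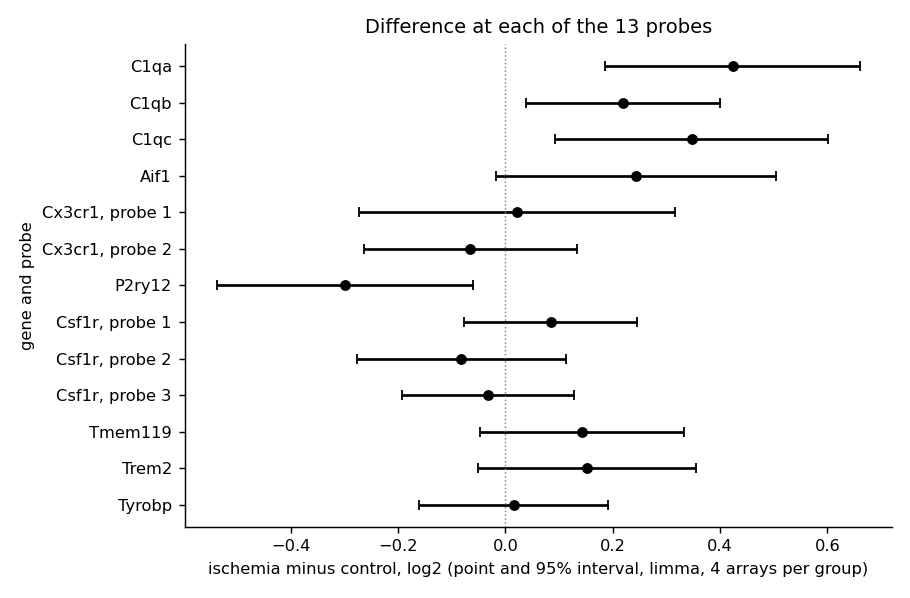
Ischemia minus control on the log2 scale at each of the 13 probes, with 95% intervals from limma (4 arrays per group, not adjusted for the number of probes). Intervals of the 3 C1q genes lie above 0 and that of P2ry12 below 0, while those of Aif1, Trem2, Tmem119, Csf1r, Cx3cr1 and Tyrobp include 0.

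Differences between probes of the same array do not depend on the scaling between arrays. C1qa minus Tyrobp was -0.99, -0.77, -1.09 and -0.99 in ischemia replicates 1 to 4, against -1.37, -1.29, -1.49 and -1.34 in control replicates 1 to 4. All ischemia arrays were above all controls. The mean difference, 0.41, is by construction that of C1qa less that of Tyrobp, which was 0.02. C1qc minus Tyrobp was 0.24, 0.34, 0.33 and 0.25 in ischemia, against -0.21, 0.05, -0.10 and 0.11 in control. Again the groups did not overlap, and the SD was 0.05 in ischemia and 0.15 in control (n = 4 each). For C1qb minus Tyrobp 2 of 4 ischemia arrays were above the highest control. P2ry12 minus Tyrobp was -3.32, -3.31, -3.37 and -2.95 in ischemia, against -2.85, -2.97, -2.94 and -2.93 in control. Ischemia replicates 1 to 3 lay below every control. Relative to Csf1r instead, all 4 ischemia arrays were above the highest control for C1qa and C1qc, and 3 of 4 for C1qb. For P2ry12 minus Csf1r, 3 of 4 ischemia arrays were below the lowest control and 1 was above the highest. The pairs were chosen after the values were seen and were not tested.

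**Figure D4:**
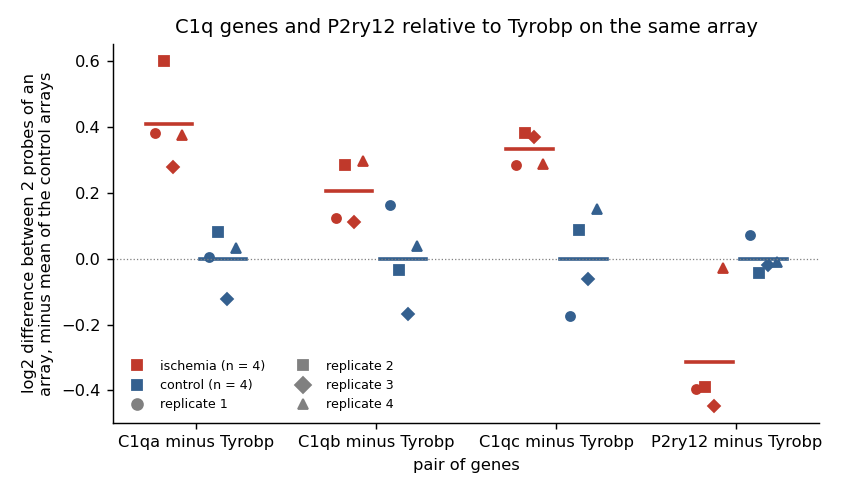
Log2 difference between C1qa, C1qb, C1qc or P2ry12 and Tyrobp on the same array, minus the mean of the 4 control arrays, with a marker shape per replicate number and bars at the group means (n = 4 each). C1qa and C1qc lie higher relative to Tyrobp in all 4 ischemia arrays than in any control, and P2ry12 lies lower in 3 of 4.

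The 5 other genes whose profile over the 8 arrays came closest to the mean profile of the 3 C1q genes were Adcy7, Brinp2, a lincRNA feature named on the array only by its position, Slc25a27 and Pcgf1. Their root mean square distance from that profile was 0.06 to 0.08 log2 units over 8 arrays, among 15891 genes with a range at least 0.5 times that of the C1q profile. C1qa, C1qb and C1qc lay at 0.07, 0.09 and 0.08 from their own mean. C1qb and C1qc thus lay farther from the mean profile, to which they contribute, than any of these 5 genes.

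Other microglial identity genes went both ways, and 0 of 16 measured passed. At an unadjusted limma p under 0.05, 3 were higher and 2 lower, against 3.25% of all genes higher and 7.65% lower. The median difference was -0.07, against -0.02 over all genes. P2ry13, another ADP receptor of microglia, read -3.11, -3.39, -3.20 and -2.85 in ischemia, against -2.71, -2.64, -2.71 and -2.45 in control. Every ischemia array was below every control, with a difference of -0.51 (SE 0.12, limma adjusted p = 0.243). Mertk, a receptor for engulfment of dying cells, read -2.51, -1.83, -2.46 and -2.85 in ischemia, against -3.15, -3.25, -2.89 and -3.18 in control, with no overlap and a difference of 0.70 (SE 0.20, limma adjusted p = 0.294). The lysosomal protease gene Ctss differed by 0.34 and the integrin gene Itgb5 by 0.19, each with overlapping groups.

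Complement genes other than C1q did not pass either. Of 18 listed, 11 were measured, and the median difference was 0.06. At an unadjusted limma p under 0.05, 1 was higher and 1 lower, against 3.25% of all genes higher and 7.65% lower. C3, the central component that C1q activation leads to, read -0.94, -0.84, -0.78 and -0.83 in ischemia, against -0.38, -0.63, -0.24 and -0.59 in control. It was lower in every ischemia array, with a difference of -0.39 (SE 0.10, limma adjusted p = 0.252). C1ra and C1s1, which encode the proteases that join C1q in the C1 complex, were among the 7 genes not well above background on enough arrays to be tested.

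Among 11 measured ligands and partners of these receptors, 0 passed and the median difference was -0.06. Csf1, a ligand of the Csf1r receptor, read -0.85, -0.82, -1.06 and -0.60 in ischemia, against -0.49, -0.40, -0.64 and -0.49 in control. The difference was -0.33 (SE 0.10, limma adjusted p = 0.329), with ischemia replicate 4 inside the control range. Of 9 measured genes of Trem2 and Tyrobp signalling 0 passed, with a median of 0.08, and the phosphatase gene Inpp5d differed by 0.27 (SE 0.11, limma adjusted p = 0.423). Of 11 measured genes shared by myeloid cells 0 passed, with a median of -0.02. In that list Ly86 differed by -0.30 and the Fc receptor gene Fcgr3 by 0.57. Among controls 3 of 4 arrays measured Fcgr3 above background.

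Genes of amoeboid and axon tract microglia, the activated-looking forms of the newborn brain, gave 0 genes that passed. Of 18 measured, 14 were lower and 4 higher, where 43% of all genes were higher. The median difference was -0.15, against -0.02 over all genes. At an unadjusted limma p under 0.05, 4 were lower, namely Ccl4, Ccl3, Itgax and Fabp5, against 7.65% of all genes. That count includes Ccl4 and Itgax, which were mostly not well above background in ischemia, so it is not read as a result about the list. Ccl4, a chemokine gene, was well above background on 0 of 4 ischemia arrays and on 4 of 4 control arrays. It was at least 1.61-fold lower in ischemia, where the bound sets the control mean against the dimmest signal still well above background. Ccl4 entered the test through the control arrays alone, so its p is not given. Ccl3, a related chemokine gene, read -2.22, -2.47, -3.71 and -1.78 in ischemia, against -1.19, -0.99, -1.08 and -1.43 in control. The groups did not overlap, with a difference of -1.37 (SE 0.36, limma adjusted p = 0.278), and 3 of 4 ischemia arrays measured it well above background. The integrin gene Itgax was well above background on 1 of 4 ischemia and 3 of 4 control arrays, so no size is given for its difference. Fabp5, a fatty acid binding protein gene that is not restricted to microglia, differed by -0.13 (SE 0.06), and was the only 1 of these 4 genes well above background on 8 of 8 arrays.

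**Figure D5:**
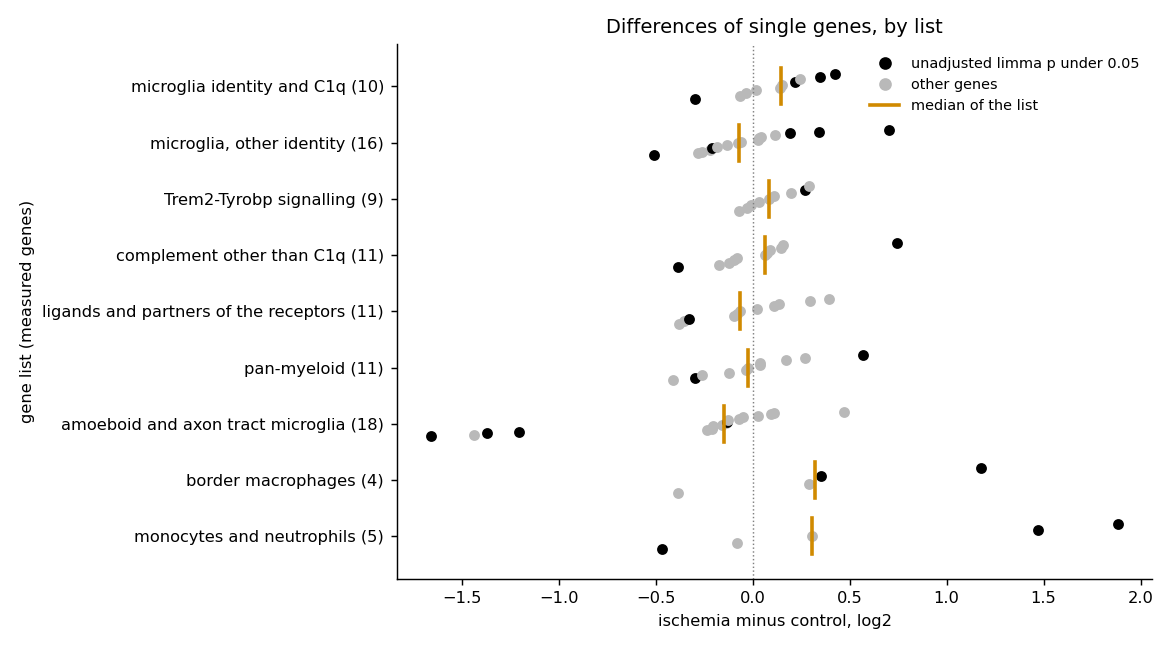
Ischemia minus control on the log2 scale for each measured gene of 9 lists, a row per list, with black points for an unadjusted limma p under 0.05 and a bar at the median of each list. The medians run from -0.15 for amoeboid and axon tract microglia to 0.32 for border macrophages, where 4 of 12 genes were measured.

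Markers of other myeloid cells were measured beside those of microglia, and 0 of them passed. Of 12 border macrophage markers 4 were measured, 3 higher and 1 lower, and Cd163, Lyve1, Cbr2 and F13a1 were among the 8 not well above background on enough arrays. The summed signal of the 4 was 1.49 to 2.19 times the array's 75th percentile in ischemia arrays and 1.10 to 1.64 times in control arrays. Pf4, a chemokine gene of these cells and of platelets, read -0.50, -2.87, -1.07 and -2.18 in ischemia, against -2.98, -2.60, -2.89 and -2.87 in control. Pf4 was highest in ischemia replicate 1, where C1qc was also highest. In ischemia replicate 2, where C1qa and Aif1 were highest, Pf4 lay within the control range, and C1qb was highest in ischemia replicate 4. The scavenger receptor gene Stab1 read 0.01, 0.09, -0.10 and -0.18 in ischemia, against -0.73, -0.30, -0.34 and -0.22 in control, and was highest in ischemia replicate 2. It differed by 0.35 (SE 0.12, limma adjusted p = 0.365). Mrc1 and Dab2, the other two measured markers, differed by 0.29 and -0.38, and the list's median was 0.32. The part of border macrophages in the C1q values was not tested.

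Of 14 monocyte and neutrophil markers 5 were measured, with a median of 0.31 and a summed signal of 2.28 to 4.79 times the 75th percentile in ischemia arrays and 2.33 to 3.63 times in control arrays. S100a8, which encodes a calcium-binding protein abundant in neutrophils, read -1.36, -1.86, -0.52 and -2.84 in ischemia, against -3.63, -2.91, -3.25 and -4.33 in control. It was higher in every ischemia array, by 1.88 (SE 0.49, limma adjusted p = 0.269). Only 2 of 4 control arrays measured it well above background, so that size rests partly on control values near background. Its partner S100a9 differed by 1.47 (SE 0.50) and the neutrophil elastase gene Elane by -0.47 (SE 0.17), each with overlapping groups. S100a9 in ischemia replicate 4 lay within the control range. The monocyte genes Ly6c2 and Ccr2 were not well above background on enough arrays to be tested. The part of these cells in the microglial values was not tested.

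Ischemia replicates 1 and 4 had the highest mean levels of meningeal markers, at 1.85 and 0.96 above the control mean. The arrays kept without them were not free of such transcripts, since replicate 3 was 0.68 above the control mean for meningeal markers, 0.50 for border macrophages and 1.26 for monocytes and neutrophils. Leaving out ischemia replicates 1 and 4, C1qa differed by 0.40, C1qc by 0.34, C1qb by 0.16 and Aif1 by 0.35. P2ry12 differed by -0.45, Tmem119 by 0.25, Trem2 by 0.09, Cx3cr1 by -0.13, Csf1r by 0.0041 and Tyrobp by -0.03. With these 2 arrays left out, 0 of the 10 genes passed (lowest limma adjusted p = 0.235, for P2ry12). The median difference of the list of border macrophages was then 0.19, and that of complement genes other than C1q was -0.08.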

How the data were processed

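Cortex RNA of 8 mouse pups was measured on 1 Agilent one-colour array each. Spots were quantified by Agilent Feature Extraction 10.7.3.1, per the file headers. The intensity of each spot is used as the authors deposited it, namely the background-corrected processed signal. An alternative starts from the uncorrected mean signal and the median local background. The authors' deposited value table is a ratio, the processed signal over a constant per array within about 0.00500% in every array, of unstated meaning. Its medians lie between 0.0836 and 0.1003, and it was used as an alternative only.

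Control spots and flagged outlier spots were left out, which dropped 26 probes, and log2 values of the spots of a probe were averaged. Each array's log2 75th percentile was subtracted (intensities of 305.6 to 393.3). Probes well above background on at least 4 of 8 arrays were kept, 27127 in all, and the brightest probe of each gene was used, for 19748 genes. Probes were named through RefSeq tables of GRCm38.p6, 27235 by accession. Coordinates of probes are mm9, from the files, and whether probes lie in exons or UTRs was not analysed here.

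The comparison of groups used lmFit and eBayes of limma 3.58.1 (R 4.3.3). Adjusted p-values follow Benjamini and Hochberg and run over all genes, or all probes, that were kept. The fit was tested on simulated data. The 10 genes and all lists were chosen with earlier results of these data known. In each list the genes named are up to 6 with an unadjusted p under 0.05, or else the 2 with the smallest p, and other names were chosen after their values were seen. Single values of 2 listed genes are not reported here. Alternatives covered background correction, scaling, filter, probe choice, variance model, replicate block, the authors' table and arrays left out. The number of arrays limits the precision.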

Additional observations from a re-analysis of the deposited data

Results flagged for a closer look

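Within each group of 4 arrays, the gap between the highest or lowest array and its neighbour was set against the whole range for the 10 genes, the further probes of Csf1r and Cx3cr1 and the 16 other lists. Of 58 sets checked, 5 had a gap ratio above the 95% critical value of Dixon's test, where chance gives about 2.9 (1 in 20) in independent sets. Aif1 was high in ischemia replicate 2 (ratio 0.914). Tmem119 was high in control replicate 1 (ratio 0.847). The mean of the other microglial identity genes was high in ischemia replicate 2 (ratio 0.877). That of the oligodendrocyte lineage was high in control replicate 3 (ratio 0.835), by 0.03 above the control mean. That of the choroid plexus was high in ischemia replicate 4 (ratio 0.833), by 3.64 above the control mean.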

How the results depend on the processing

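Over 21 other settings, 0 of the 10 genes passed in any, with lowest limma adjusted p of 0.145 for C1qa and 0.210 for C1qc. Of 210 values of single genes, 202 kept their sign and 8 turned. C1qa ranged from 0.37 to 0.56, C1qb from 0.16 to 0.36, C1qc from 0.25 to 0.48, Aif1 from 0.13 to 0.38 and P2ry12 from -0.45 to -0.16. Without scaling the median of all genes was 0.11, and relative to it Csf1r at 0.11 and Cx3cr1 at 0.072, each with the same value at its brightest probe, were not above other genes. A further Csf1r probe gave 0.055. With 1 array left out, Tyrobp ranged from -0.026 to 0.066, and was below 0 without ischemia replicate 1 (-0.022), control replicate 1 or control replicate 4 (-0.0015). Csf1r ranged from -0.061 to 0.0062, above 0 without ischemia replicate 4, and the dimmer Cx3cr1 probe from -0.078 to 0.095, below 0 without ischemia replicate 4 or control replicate 1. Without ischemia replicates 1 and 4 Tyrobp was -0.033, Csf1r 0.0041 and that Cx3cr1 probe -0.092. The cause was not tested. The count of genes passing, 1, became 2 with median scaling or no scaling, 20 with a trended and robust variance, and 0 with normexp, quantile normalization, no filter, all 8 arrays well above background, the replicate block or without ischemia replicates 1 and 4. It was 0 to 1 with 1 array left out in turn. Replicate numbers were shared by the groups. Deviations of same-numbered arrays correlated over genes at 0.08, -0.06, 0.29 and 0.39 for numbers 1 to 4. The highest correlation of each ischemia array with a control of another number was 0.18, 0.16, -0.03 and 0.04. Numbers 3 and 4 thus correlated more with their own number, and numbers 1 and 2 with another. Whether the numbers pair the pups is not in the labels, and the main fit used no block. With the replicate block 0 of the 10 passed, and C1qa and P2ry12 had limma adjusted p of 0.233 and 0.394. The dim probes of P2ry12 and Tmem119 gave -0.22 and 0.056 with normexp, and Tmem119 ranged from 0.056 to 0.28.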

Other observations

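Marker lists of the other cell types of cortex held 0 genes that passed, where 43% of all genes were higher. Of 8 endothelial markers 5 were higher and 3 lower, with a median difference of 0.04. Slco1a4, a transporter gene of the blood-brain barrier, was well above background on 4 of 4 ischemia and 0 of 4 control arrays and at least 1.78-fold higher. It entered the test through the ischemia arrays alone, so its p is not given. The receptor gene Kdr differed by -0.31 (SE 0.07). All 8 oligodendrocyte lineage markers were higher, with a median of 0.07, and the 2 with the smallest p were Sox10 at 0.23 and Pdgfra at 0.11. The mean of these markers relative to the control mean was 0.19, 0.22, -0.01 and -0.04 in ischemia replicates 1 to 4. In control replicates 1 to 4 it was -0.01, -0.02, 0.03 and -0.01, so the groups overlapped. Of 8 neuronal markers 2 were higher, with a median of -0.02, Dcx at 0.16 and Tubb3 at -0.11. Of 8 astrocyte markers 4 were higher, with a median of 0.02 and Aldoc at 0.26.

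All 6 measured red blood cell genes were lower, where 43% of all genes were higher. Their median was -0.43, with Hba-a2 at -0.54 and Hba-a1 at -0.48, 2 genes of near-identical sequence. The mean of the list relative to the control mean was -0.27, 0.03, -0.50 and -0.82 in ischemia replicates 1 to 4. In control replicates 1 to 4 it was -0.45, 0.02, 0.34 and 0.09, so the groups overlapped. Of 5 measured lymphocyte markers 1 was higher, with a median of -0.11 and Cd3e at -0.23. Meningeal markers had a median of 0.44, with Ptgds at 2.35 (SE 0.87), Slc6a13 at 1.56 (SE 0.66) and Igf2 at 0.34 (SE 0.13). Ptgds read 3.04, -0.27, -0.01 and 3.48 in ischemia replicates 1 to 4. Slc6a13 was well above background on 4 of 4 ischemia and 2 of 4 control arrays. Choroid plexus markers had a median of 0.76, with Ttr at 2.74 (SE 2.13) and Enpp2 at 0.28. Without ischemia replicate 4 that median was -0.01.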
